A study of Mus musculus with 30 samples.

Results

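WT1, one of 3 wild type clones of the mouse macrophage-like cell line J774A.1, was compared with its fellow clones WT2 and WT3 for its response to interferon gamma (IFNG). The members are the 18 wild type libraries among the 30 of the series, 6 from WT1 and 12 from WT2 and WT3, and each gene was tested for an interaction of treatment with clone group. The interaction is the log2 fold change (log2FC) with IFNG in WT1 minus the log2FC shared by WT2 and WT3, so a negative value is a weaker induction or a stronger repression in WT1. Of 14328 genes tested, 390 had an interaction at an FDR adjusted p-value under 0.05, or 2.72% of all genes. The largest class of these, 191 genes, were induced genes with a smaller log2FC in WT1, among them Cd40, Acod1, Csf1, Pim1, Cd274, Fas and Tnfaip3. A smaller group of repressed genes fell less in WT1, among them Cxcr4, S1pr1 and Tlr13. Irgm1, Gbp8 and Gbp9 had a larger log2FC in WT1 than in WT2 and WT3.

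IFNG binds the receptor formed by IFNGR1 and IFNGR2, which activates the kinases JAK1 and JAK2 and, through them, transcription factors of the STAT family. Activated STAT dimers bind gamma-activated sites (GAS) in the promoters of interferon-stimulated genes (ISGs), and the newly made factor IRF1 extends the response through interferon-stimulated response elements (ISRE). In macrophages the programme raises antigen presentation, chemokines and the GTPases that attack vacuoles of intracellular pathogens, and many of its inflammatory members also carry sites for NF-kB.

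RNA was collected from cells left untreated (UT) or given 100 ng/mL mouse IFNG for 4 h, with 3 libraries for each clone and treatment. The 3 wild type clones were each expanded from a single cell, had not been electroporated and carry the unedited Dicer1 locus. The remaining 12 libraries come from KO1 and KO2, clones in which CRISPR removed both copies of B2_Mm2.Dicer1, a B2 transposable element in the first intron of Dicer1. They were used to define gene sets independently of the wild type libraries and for a comparison over all 5 clones. WT1 is 1 clone, so the p-values cover mainly the spread between libraries and do not measure the spread over clones. In the interaction test the difference in response between WT2 and WT3 is pooled with the library spread, over 13 residual degrees of freedom. The tests of pairs, single clones and levels use a fit with 12, where that difference does not enter. The sources used here do not say whether the 3 libraries of a group came from separate cultures. They name more than one RNA input and more than one adapter type without assigning them to libraries, and give no preparation day. The count columns of WT1 are also named in another style than those of WT2 and WT3. Batch and clone therefore cannot be told apart.

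The wild type libraries held 15566122 to 29000473 counts assigned to genes. No pair of libraries of one group was a duplicate, since the chi-square statistic of their counts divided by its degrees of freedom was 1.88 to 17.9. The highest value was in WT3 IFNG, and the highest in WT1 IFNG was 12.8. All 10 macrophage markers were at or above 1 CPM (counts scaled to the library size) in each of the 18 libraries, with a summed level of 4152 to 4686 CPM in WT1 and 4924 to 5928 CPM in WT2 and WT3. Single markers went both ways. In untreated WT1, WT2 and WT3, Adgre1 averaged 10.4, 101 and 42.5 CPM, Lyz2 884, 1934 and 2080 CPM, and Itgam 855, 624 and 675 CPM. The summed markers of T cells, B cells and epithelial cells reached at most 0.193 CPM in any library, those of fibroblasts 2.99 CPM, those of neutrophils 3.52 CPM and those of dendritic cells 5.68 CPM. Cd3e, S100a9, Krt8 and Siglech were at 0 in all 18 libraries. Other members of these lists were not, with the neutrophil marker S100a8 at 1.25 to 3.09 CPM and the dendritic cell marker Zbtb46 at 1.31 to 5.54 CPM. Zbtb46 was higher in WT1. Dicer1, the gene that carries the deleted element in the KO clones, rose in the 3 wild type clones by a log2FC of 0.35, 0.33 and 0.40, with an interaction of -0.013 (adjusted p = 0.97). One library, WT1 IFNG replicate 3, often stood apart from the other 2 of its group, and without it 454 genes had an interaction, 140 positive and 314 negative, of which 333 were among the 390. WT1 UT replicate 1 also stood apart for some genes, as for Ptgs2, at 93.3 CPM against 58.6 and 58.9 CPM. Without that library 424 genes had an interaction, 204 positive and 220 negative, of which 311 were among the 390.

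Among the 390 genes, 238 had a negative interaction (1.66% of genes tested) and 152 a positive one (1.06%). At an unadjusted p under 0.05 there were 1612 genes. The median interaction over all genes tested was -0.018, and 21 of the 390 genes had an absolute interaction above 1. By direction, 191 genes were induced and weaker in WT1, 27 were induced and stronger, 96 were repressed and weaker, 9 were repressed and stronger, and 67 had responses of opposite sign in WT1 and in the mean of WT2 and WT3. The plot of the responses shows the weaker inductions below the line of equal responses over its whole range, up to a log2FC of 7.0 for Acod1 in WT2 and WT3.

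**Figure D1:**
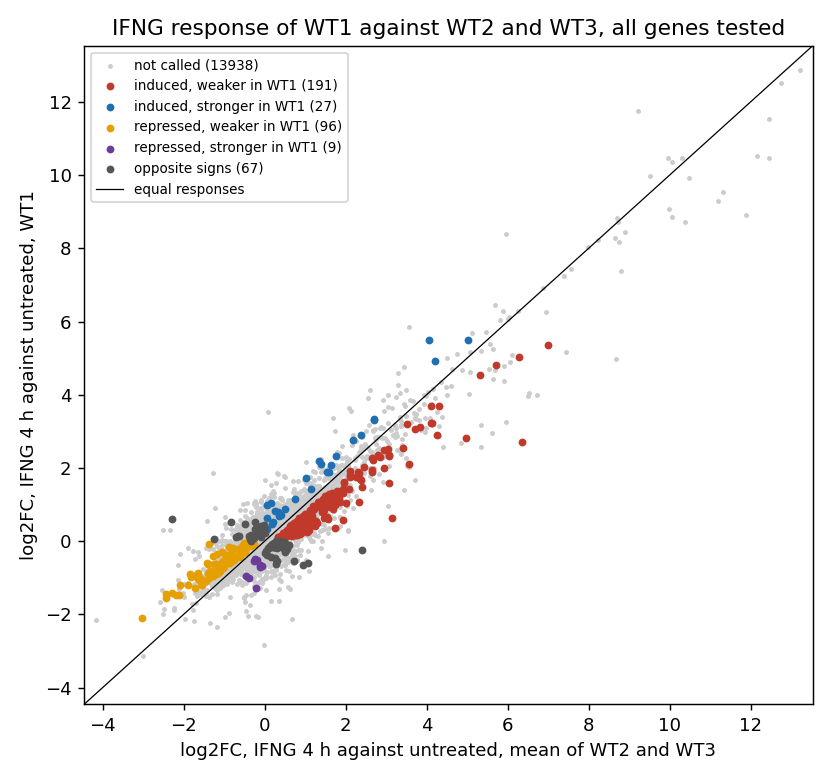
Each point is 1 of 14328 genes, with the log2FC of the mean of WT2 and WT3 on the horizontal axis and that of WT1 on the vertical axis, and the line marks equal responses. The 191 induced genes that were weaker in WT1 (red) lie below the line, the 96 weaker repressed genes (orange) and the 27 stronger induced genes (blue) above it.

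Taken a pair of clones at a time, WT1 differed from WT2 in the response of 201 genes (1.4%) and from WT3 in that of 385 genes (2.69%), while WT2 and WT3 differed in 11 genes (0.0768%). At an unadjusted p under 0.05 the counts were 1409, 1526 and 799. The first 2 comparisons share the WT1 libraries. The count for WT1 and WT2 was 132 without WT2 UT replicate 2. For WT1 and WT3 it was 245 without WT3 UT replicate 1 and 254 without WT3 IFNG replicate 2. Alone in its clone, the IFNG response passed the threshold for 4074 genes in WT1 (28.4%), 3876 in WT2 (27.1%) and 4567 in WT3 (31.9%), and for the mean of WT2 and WT3 it passed for 5672 (39.6%).

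ISGs and interferon-repressed genes (IRGs) were defined from the 12 KO libraries, which the interaction does not use, as genes with an adjusted p under 0.05 and a log2FC above 1 or below -1; the KO response passed the threshold in 39.4% of 14370 genes. Of 577 ISGs tested, 98 had an interaction (16.98%, beside 2.72% of all genes), 84 negative and 14 positive. Of the 577 interactions 383 were below 0 (66.4%, beside 56.1% of all genes). Their median interaction was -0.17, beside -0.018 over all genes. Of 125 IRGs, 28 had an interaction, all 28 positive, with a median of 0.30. The median was 0.20 without WT1 IFNG replicate 3. The median response of the ISGs was a log2FC of 1.76 in WT1, 1.85 in WT2, 1.91 in WT3, 1.94 in KO1 and 1.74 in KO2. That of the IRGs was -1.07 in WT1, -1.31 in WT2, -1.48 in WT3, -1.28 in KO1 and -1.26 in KO2. Among the wild type clones WT1 thus had the smallest median repression and the smallest median ISG response. Both sets were defined by the responses of KO1 and KO2, so the KO medians were partly fixed by the choice. They do not show where WT1 lies among the 5 clones.

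Library by library, the median ISG change against the untreated mean of the same clone, on the scale of log2(CPM + 0.5), was 1.24, 1.30 and 1.36 in the WT1 libraries, 1.46, 1.44 and 1.44 in WT2 and 1.45, 1.5 and 1.56 in WT3. The 3 WT1 libraries lay below all 6 others. For the IRGs the same values were -0.96, -1.05 and -0.84 in WT1, -1.06, -1.12 and -1.07 in WT2 and -1.16, -1.12 and -1.10 in WT3. Here too the groups did not overlap, although WT1 IFNG replicate 2 lay close to WT2. Split by strength in the KO clones, 57 of 328 ISGs with a log2FC of 1 to 2 had an interaction (median -0.14), as did 31 of 162 with a log2FC of 2 to 4 (median -0.16) and 10 of 87 above 4 (median -0.33). These are shares of 17.4%, 19.1% and 11.5%, beside 2.72% of all genes and a median of -0.018 over them. The strongest ISGs thus had the lowest median but also the smallest share of calls. Genes with few untreated counts, whose folds are uncertain, were not left out of these medians.

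Promoters of 6 induced genes are shown because they carry the elements named above in different combinations. Irf1 and Cxcl10 had no interaction, and Fas, Cd274, Csf1 and Ccrl2 were weaker in WT1. Each line gives the 250 bases before the RefSeq start of the gene on its own strand, from the GRCm38.p6 build. Capitals mark every match to the GAS core TTCNNNGAA, the ISRE core GAAANNGAA or the NF-kB core GGANTTTCC on either strand. The windows are chr11:53769764-53770013 on the plus strand for Irf1, chr5:92348890-92349139 on the minus strand for Cxcl10, chr19:34290409-34290658 on the plus strand for Fas, chr19:29367188-29367437 on the plus strand for Cd274, chr3:107760470-107760719 on the minus strand for Csf1 and chr9:111057519-111057768 on the minus strand for Ccrl2.
Irf1: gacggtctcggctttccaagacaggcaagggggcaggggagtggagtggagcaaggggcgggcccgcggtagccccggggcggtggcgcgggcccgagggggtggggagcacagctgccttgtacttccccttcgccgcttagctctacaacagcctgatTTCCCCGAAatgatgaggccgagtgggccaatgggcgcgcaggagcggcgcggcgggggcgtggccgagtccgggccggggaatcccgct
Cxcl10: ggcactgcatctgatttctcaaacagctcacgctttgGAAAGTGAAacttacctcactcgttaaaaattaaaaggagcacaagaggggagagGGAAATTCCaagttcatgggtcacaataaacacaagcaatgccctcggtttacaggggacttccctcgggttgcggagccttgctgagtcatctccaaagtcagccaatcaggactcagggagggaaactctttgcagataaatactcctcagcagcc
Fas: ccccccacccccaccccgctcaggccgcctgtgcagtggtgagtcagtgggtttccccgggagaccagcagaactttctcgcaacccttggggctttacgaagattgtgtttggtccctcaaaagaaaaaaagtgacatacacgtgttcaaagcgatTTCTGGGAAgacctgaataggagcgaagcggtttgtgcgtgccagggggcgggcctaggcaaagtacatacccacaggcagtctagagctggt
Cd274: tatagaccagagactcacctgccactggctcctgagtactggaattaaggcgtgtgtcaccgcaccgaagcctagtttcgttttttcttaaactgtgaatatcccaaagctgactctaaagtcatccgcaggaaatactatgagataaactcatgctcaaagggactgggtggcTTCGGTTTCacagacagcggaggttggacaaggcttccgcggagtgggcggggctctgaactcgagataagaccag
Csf1: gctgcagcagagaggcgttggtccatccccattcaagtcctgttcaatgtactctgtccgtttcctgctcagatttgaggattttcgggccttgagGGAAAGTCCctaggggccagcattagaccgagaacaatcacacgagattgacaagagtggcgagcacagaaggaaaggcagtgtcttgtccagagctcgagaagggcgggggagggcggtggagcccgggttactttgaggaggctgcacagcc
Ccrl2: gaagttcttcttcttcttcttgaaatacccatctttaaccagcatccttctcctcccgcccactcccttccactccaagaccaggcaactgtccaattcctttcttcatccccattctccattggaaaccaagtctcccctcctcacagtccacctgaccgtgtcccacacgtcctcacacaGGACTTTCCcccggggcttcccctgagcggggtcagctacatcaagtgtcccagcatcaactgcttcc

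The capitals mark a GAS core in Irf1 and in Fas, an ISRE core in Cd274, an NF-kB core in Csf1 and in Ccrl2, and both an ISRE and an NF-kB core in Cxcl10. Searched over every RefSeq window of a gene, here from 250 bases before to 50 after the start, 9476 of the 14328 tested genes had a promoter. The GAS core stood in 8.2% of these genes, the ISRE core in 8.95% and the NF-kB core in 1.58%. Among the 378 ISGs with a window the shares were 16.9%, 27.8% and 5.03%. Among 152 of the 191 induced genes weaker in WT1 they were 13.2%, 16.4% and 7.24%, and among 77 of the 96 weaker repressed genes 9.09%, 11.7% and 6.49%. Of the 27 induced genes stronger in WT1, 20 had a window; 2 held an ISRE core and 0 held the other cores. ISGs without an interaction (306 with a window) had shares of 16%, 29.4% and 3.27%. Matches overlap where elements adjoin, and the GAS core reads the same on both strands. These shares are a description with no test, and a match is not evidence of binding.

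Among the receptors, JAK kinases and STATs, called genes differed in both directions. Stat3 carries signals of IL-10 and IL-6 family cytokines. Its untreated level was 91.9, 95.4 and 98.4 CPM in WT1, above the 65.8 to 71.6 CPM of the 6 other libraries. After IFNG the WT1 libraries, at 391, 353 and 410 CPM, overlapped the 348 to 393 CPM of WT2 and WT3, and the interaction was -0.45 (SE 0.060, adjusted p = 2.8e-05). Stat5b had an interaction of -0.35 (adjusted p = 0.0029). The receptor chains Ifngr2 and Ifnar1 fell with IFNG in all 3 clones and less in WT1, with interactions of 0.27 (adjusted p = 0.024) and 0.29 (adjusted p = 0.0034). The Ifngr2 call was lost without WT1 UT replicate 2 or 3 or WT1 IFNG replicate 2 (0.23 to 0.27). For Ifngr1, which binds the ligand, the interaction was 0.23 (adjusted p = 0.23), and for Jak2 it was 0.079 (adjusted p = 0.77).

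Irf1, the first transcription factor made in the response, showed no interaction although WT1 was slightly higher. It was at 26.6, 25.03 and 24.8 CPM in untreated WT1, and at 21.8 to 24.4 CPM in the 6 other untreated libraries. After IFNG it was at 893, 886 and 963 CPM in WT1, 728, 774.3 and 741 in WT2 and 795, 770 and 785 in WT3. The groups did not overlap at either time, and the log2FCs were 5.17, 5.01 and 5.11 (interaction 0.11, SE 0.063, adjusted p = 0.59). Among the 8 interferon regulatory factors tested only Irf7, which amplifies type I interferon, had an interaction, beside 2.72% of all genes. Its log2FC was 2.35 in WT1 against 2.82 in WT2 and 3.31 in WT3 (interaction -0.69, adjusted p = 0.0013). Its IFNG level was 44.9 to 48.2 CPM in WT1, below the 58.0 to 77.8 CPM of WT2 and WT3.

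Negative regulators of cytokine signalling differed in 2 of 12 genes, both weaker in WT1, where 1.66% of all genes had a negative call. Socs3, an inhibitor of JAK kinases that is induced by STAT3, was at 14.01, 13.1 and 10.2 CPM in untreated WT1 and at 2.77 to 4.86 CPM in the other untreated libraries. IFNG brought it to 290, 259 and 313 CPM in WT1 and to 140 to 159 CPM in WT2 and WT3. WT1 was above all other libraries in both conditions, yet rose by a log2FC of 4.53 against 5.42 and 5.20 (interaction -0.76, SE 0.15, adjusted p = 0.0021). For Socs1, the main brake on IFNG signalling, the interaction was 0.046 (SE 0.41, adjusted p = 0.99). The phosphatase Ptpn6 had an interaction of -0.21 (adjusted p = 0.031), which did not pass without any of 11 libraries taken singly.

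Guanylate-binding proteins and immunity-related GTPases, both families of large GTPases that act on pathogen vacuoles, were the programmes in which called members were all stronger in WT1. Of 11 guanylate-binding proteins 2 had an interaction, and of 14 immunity-related GTPases 4 did, against 1.06% positive calls over all genes. Their median interactions were 0.089 and 0.21, beside -0.018 over all genes. Gbp8 was at 0.654, 0.986 and 1.32 CPM in untreated WT1, below the 1.45 to 2.96 CPM of the other 6. After IFNG it was at 40.1, 41.0 and 53.5 CPM in WT1, 34.1, 35.6 and 35.9 in WT2 and 35.5, 32.9 and 44.5 in WT3, so the treated levels overlapped. The interaction was 1.44 (SE 0.28, adjusted p = 0.0024). Gbp9 had an interaction of 0.72 (SE 0.14, adjusted p = 0.0023). The spans of Gbp8, Gbp9 and Gbp4 overlap on chromosome 5 on the same strand, and fragments over overlapping genes were counted for each of them, so Gbp8 and Gbp9 are not independent and their separate values are uncertain.

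Irgm1, a regulator of the other immunity-related GTPases (chr11:48861968-48871683, mm10, minus strand), was at 22.8, 24.9 and 24.7 CPM in untreated WT1 and at 32.6 to 40.1 CPM in the other 6. With IFNG it reached 1101, 1079 and 1110 CPM in WT1, 1142, 1147 and 1132 in WT2 and 1146, 1217 and 1205 in WT3. WT1 was the lowest clone in both conditions, but by a smaller ratio after IFNG, and the interaction was 0.49 (SE 0.072, adjusted p = 0.00011). Gm5431, 9930111J21Rik1 and 9930111J21Rik2, near-identical relatives on chromosome 11 between which reads can be split uncertainly, had interactions of 0.52, 0.54 and 0.45. The call of 9930111J21Rik1 was lost without WT1 UT replicate 2 or 3 or WT1 IFNG replicate 3 (0.45 to 0.55), and that of 9930111J21Rik2 without WT1 UT replicate 1 or WT1 IFNG replicate 3 (0.39 and 0.38). Igtp, an effector GTPase, had an interaction of 0.20 (adjusted p = 0.46) that passed against WT2 alone (0.46), and shares fragments with the overlapping Irgm2.

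Members of these families with no interaction included those most strongly induced. Gbp2b rose by a log2FC of 8.84 in WT1, 8.4 in WT2 and 9.0 in WT3 (interaction 0.13, adjusted p = 0.84), and Gbp2 by 7.44, 7.27 and 7.87 (-0.13, adjusted p = 0.83). Gbp5 was at 0 in all 6 untreated libraries of WT2 and WT3 and at 13.3 to 15.3 CPM after IFNG in WT1, 18.5 to 19.1 in WT2 and 23.03 to 29.7 in WT3. No fold is given for Gbp5, and its treated WT1 libraries were the lowest of the 9.

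The gene with the smallest adjusted p of all named genes was Cd40, the costimulatory receptor through which T cells activate macrophages (chr2:165055627-165072948, mm10, plus strand). In untreated cells it was at 20.3, 18.8 and 19.8 CPM in WT1, 5.58, 5.13 and 5.48 in WT2 and 4.61, 4.45 and 4.62 in WT3. After IFNG it was at 87.3, 86.1 and 79.0 CPM in WT1, 57.1, 65.0 and 60.7 in WT2 and 53.0, 60.5 and 56.7 in WT3. WT1 exceeded every other library in both conditions, by a larger ratio before treatment than after, although the gap in CPM was wider after IFNG. Its log2FC was 2.1, against 3.50 in WT2 and 3.63 in WT3, an interaction of -1.47 (SE 0.087, adjusted p = 5.4e-11).

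Checkpoint and costimulatory genes had 3 calls among 9 tested, Cd40, Cd274 and Icam1, all weaker in WT1 (negative calls over all genes 1.66%), and a median interaction of -0.058. Cd274 encodes PD-L1, the ligand that restrains T cells. It was at 8.66, 8.37 and 8.82 CPM in untreated WT1 against 4.18 to 5.51 CPM in the other 6, and at 231, 219 and 276 CPM after IFNG against 237 to 247 in WT2 and 280 to 297 in WT3. The untreated groups were apart and the treated WT1 libraries reached down below both others, with an interaction of -0.92 (SE 0.12, adjusted p = 2.4e-05). The adhesion molecule Icam1 followed the same course, with 53.1 to 62.5 CPM in untreated WT1 against 40.7 to 47.7, and 324 to 340 CPM after IFNG against 325 to 364 (interaction -0.52, adjusted p = 2.9e-05).

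Acod1, the enzyme that makes the antibacterial metabolite itaconate (chr14:103046977-103056573, mm10, plus strand), showed the same order at a wider scale. Untreated WT1 libraries had 9.66, 6.73 and 9.72 CPM, those of WT2 0.365, 0.547 and 0.945 and those of WT3 0.786, 0.605 and 0.446. After IFNG they had 373, 302 and 395 CPM in WT1, 82.8, 108 and 89.9 in WT2 and 71.5, 65.7 and 66.2 in WT3. WT1 was far above the others throughout, and its log2FC of 5.36 was smaller than the 7.28 of WT2 and the 6.72 of WT3 (interaction -1.64, SE 0.26, adjusted p = 0.00034). In the list of nitric oxide, arginine, itaconate and tryptophan enzymes, Acod1 and the cationic amino acid transporter Slc7a2 (interaction 0.38, adjusted p = 0.0024) were the 2 calls among 10 genes. The share over all genes was 2.72%. Slc7a2 changed little in WT1, from 43.3 to 49.6 CPM untreated to 44.5 to 50.4 CPM after IFNG. In WT2 and WT3 it fell, from 28.1 to 32.4 CPM to 22.5 to 25.9 CPM. Nos2, the inducible nitric oxide synthase, was at 2.81 to 3.77 CPM in untreated WT1 and at 0.042 to 0.189 CPM in the others, and at 29.1 to 65.3 CPM after IFNG against 0.794 to 2.44. The Nos2 level was thus higher in WT1 by 4.81 and 4.97 log2 units with a response difference of 0.13 (SE 1.67, adjusted p = 0.99), whose error is too large for its size to be read.

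**Figure D2:**
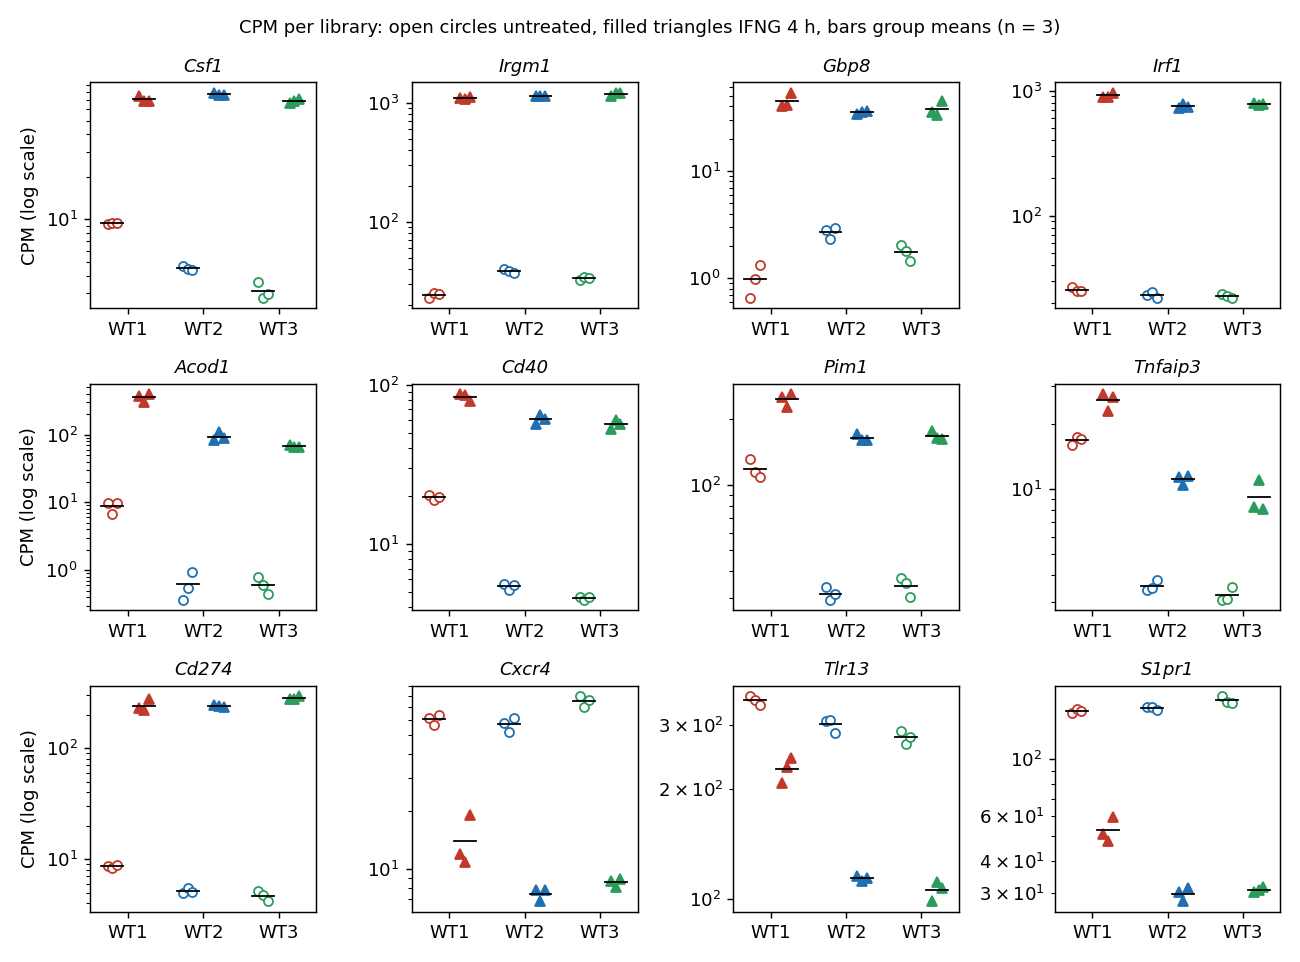
CPM of 12 genes in each of the 18 libraries on log axes, with open circles for untreated and filled triangles for IFNG libraries and bars for the mean of 3. For Cd40, Acod1, Pim1 and Tnfaip3 the untreated WT1 libraries lie far above the others and the gap narrows after IFNG, while for Cxcr4 and S1pr1 it is after IFNG that WT1 stands above the others.

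Called genes linked to NF-kB all had a negative interaction, 5 as a weaker induction and Nfkbia with responses of opposite sign. Of 12 NF-kB subunits and inhibitors 4 had an interaction, all negative, against 1.66% of all genes with a negative call, and their median interaction was -0.13. Tnfaip3, the deubiquitinase A20 that restrains NF-kB, was at 16.1, 17.4 and 17.1 CPM in untreated WT1, 3.39, 3.49 and 3.78 in WT2 and 3.07, 3.11 and 3.51 in WT3. After IFNG it was at 27.4, 22.98 and 26.6 CPM in WT1, 11.4, 10.4 and 11.5 in WT2 and 8.29, 11.1 and 8.12 in WT3. Even the untreated WT1 libraries exceeded all treated libraries of the other clones. The interaction was -0.97 (SE 0.12, adjusted p = 2.0e-05).

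The inhibitor Nfkbia fell with IFNG in WT1 and rose in the mean of WT2 and WT3. It was at 143, 128 and 136 CPM in untreated WT1 and 131, 113 and 112 after IFNG, while WT2 and WT3 went from 79.8 to 90.4 CPM to 87.8 to 119 CPM, an interaction of -0.50 (SE 0.089, adjusted p = 0.00098). Relb and Nfkb2, subunits of the alternative pathway, had interactions of -0.40 (adjusted p = 0.022) and -0.28 (adjusted p = 0.031), and both calls were lost on leaving out some libraries, that of Relb without WT1 UT replicate 1 or 3 or WT1 IFNG replicate 2 and that of Nfkb2 without any of 9 libraries, with values of -0.37 to -0.34 and -0.28 to -0.23. In this list 9 of 12 genes were higher in untreated WT1, against 29.3% of all genes tested, and 1 was lower, against 25.2%.

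Among inflammatory mediators linked to NF-kB, 2 of 10 tested were called, beside 2.72% of all genes. Csf1, the growth factor of macrophages, was at 9.28, 9.49 and 9.48 CPM in untreated WT1, 4.70, 4.46 and 4.35 in WT2 and 3.61, 2.77 and 2.95 in WT3. After IFNG the clones overlapped, with 74.5, 69.2 and 68.9 CPM in WT1, 75.8 to 78.9 in WT2 and 66.9 to 71.2 in WT3. A level difference was called in the untreated cells and not after IFNG, and the interaction was -1.35 (SE 0.099, adjusted p = 1.8e-09). Ptgs2, the inducible cyclooxygenase, was at 58.6 to 93.3 CPM in untreated WT1 and at 1.86 to 5.67 CPM in the others, with an interaction of -0.82 (adjusted p = 0.045) whose call was lost on leaving out any 1 of 12 libraries (-0.84 to -0.56). The level difference of Ptgs2 was 4.54 log2 units before and 3.71 after IFNG. Tnf, although higher in WT1 by 0.67 log2 units untreated, had an interaction of 0.048 (adjusted p = 0.94), and for the neutrophil chemokine Cxcl2 it was -0.12 (adjusted p = 0.92).

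Immediate early genes, which respond to many stimuli within minutes to hours, had 4 calls among 17, and each was negative, beside 1.66% of all genes (median of the 17 -0.15). Atf3, a stress-induced repressor, was at 199, 196 and 206 CPM in untreated WT1 against 82.7 to 99.1 CPM in the other 6, and at 377, 389 and 413 CPM after IFNG against 270 to 316 CPM. WT1 was above the rest in both conditions, with a log2FC of 0.97 against 1.70 and 1.66 (interaction -0.70, SE 0.058, adjusted p = 1.2e-08). Junb, a subunit of AP-1, had an interaction of -0.61 (adjusted p = 0.0024). The survival gene Ier3 fell by 0.47 in WT1 and rose by 0.27 in the mean of WT2 and WT3 (-0.72, adjusted p = 0.0022).

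Myc, a driver of cell growth, was one of the 9 genes with a stronger repression in WT1. Its CPM went from 23.7, 24.5 and 23.5 to 15.6, 15.1 and 15.2 in WT1, from 18.8, 18.8 and 15.9 to 16.9, 15.7 and 16.3 in WT2, and from 18.8, 20.01 and 18.05 to 18.2, 17.6 and 17.4 in WT3. WT1 began above all others and ended below them. The log2FC of -0.64 in WT1 passed the threshold and the -0.12 of the mean of WT2 and WT3 did not (adjusted p = 0.072), and the interaction was -0.53 (adjusted p = 0.00019).

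Of the largest negative interactions, several belonged to no list. Cdc42ep2, an effector of the small GTPase CDC42, had the largest among the named genes that passed the threshold. It was at 6.62, 5.54 and 6.56 CPM in untreated WT1 and at 0.668 to 0.945 CPM in the other 6, and at 45.6, 37.3 and 49.8 CPM after IFNG against 22.9 to 27.7 CPM. WT1 again exceeded the others throughout, and its log2FC was 2.83 against 4.87 in WT2 and 5.05 in WT3 (interaction -2.13, SE 0.17, adjusted p = 8.6e-09). The kinase Pim1, a STAT target, was at 109 to 131 CPM in untreated WT1 against 29.6 to 37.3, and at 228 to 261 CPM after IFNG against 160 to 176 (interaction -1.26, adjusted p = 6.1e-10). The small MAF factor Maff was at 10.2 to 12.9 CPM against 3.07 to 4.07 untreated, and at 32.03 to 34.6 against 27.5 to 32.8 after IFNG (-1.47, adjusted p = 8.6e-09).

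For a few of these genes WT1 was also lower after IFNG. Cemip2, a cell surface hyaluronidase, was at 37.4 to 43.6 CPM in untreated WT1 against 22.1 to 26.9, and at 49.2, 49.2 and 54.5 CPM after IFNG against 68.5 to 72.7 in WT2 and 92.3 to 103 in WT3. The order of the clones was inverted by the treatment, with log2FCs of 0.35, 1.57 and 1.90 (interaction -1.39, SE 0.096, adjusted p = 7.2e-10). Tiam1, an activator of the small GTPase RAC1, had an interaction of -1.35 (adjusted p = 1.1e-07), and its treated WT1 libraries, at 10.3 to 12.1 CPM, overlapped WT2 and lay below the 18.4 to 21.2 CPM of WT3. Fchsd2, a membrane-binding adaptor, did not differ in untreated cells by the test (-0.14 log2 units, adjusted p = 0.083) and reached 33.99 to 37.1 CPM in WT1, 58.0 to 64.1 in WT2 and 85.2 to 100 in WT3 (interaction -0.99, adjusted p = 1.8e-05). Its response also differed between WT2 and WT3 (-0.53, adjusted p = 0.040).

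Death genes had 4 calls among 19, Fas, Bcl2l11, Daxx and Ripk3, all negative, beside 1.66% of all genes, with a median of -0.049 over the 19. Fas, the death receptor, was at 3.98 to 4.54 CPM in untreated WT1 against 2.52 to 3.01 in the others, and at 37.7, 38.8 and 40.6 CPM after IFNG against 44.6 to 54.6. It was higher before and lower after treatment with no overlap in either condition (interaction -0.90, SE 0.12, adjusted p = 3.0e-05). Bcl2l11, the BH3-only protein BIM, had a log2FC of 0.16 in WT1 (adjusted p = 0.058) and of 0.71 in WT2 and WT3 (interaction -0.55, adjusted p = 9.4e-05). Il15 and Il10ra, a cytokine for natural killer cells and a chain of the IL-10 receptor, were the 2 calls among 10 interleukin genes. The share over all genes was 2.72%. Their interactions were -0.57 (adjusted p = 0.0043) for Il15 and -0.43 (adjusted p = 0.0017) for Il10ra.

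Antigen presentation and antiviral programmes had few calls by number. In lists this short a single call already exceeds the 2.72% of all genes with an interaction, so a share above it carries no weight. Among the ISGs the share was 16.98%. Of 18 genes of MHC class I presentation, 2 were called: Nlrc5, the transactivator of these genes, with an interaction of -0.42 (adjusted p = 0.0042), and B2m, the light chain, with -0.21 (adjusted p = 0.035), lost on leaving out any 1 of 12 libraries. Yet 15 of the 18 were higher in untreated WT1 and 13 after IFNG, against 29.3% and 28.3% of all genes. The peptide transporter Tap1 was at 29.02 to 30.7 CPM in untreated WT1 against 17.3 to 21.2, and at 252 to 267 CPM after IFNG against 171 to 189, with an interaction of -0.10 (adjusted p = 0.62). Its log2FC was 3.12 in WT1 and 3.22 in the mean of WT2 and WT3. For the 6 immunoproteasome genes there were 0 calls by edgeR, 0 by DESeq2 and 1 at an unadjusted p under 0.05, and Psmb9, a catalytic subunit, had an interaction of -0.10 (adjusted p = 0.72).

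At an unadjusted p under 0.05 the interaction passed in 4 of the 18 genes of MHC class I and in 14 of 31 antiviral genes shared with type I interferon, beside 1612 of all 14328 genes. Of the 31 antiviral genes 2 had an interaction after adjustment: Eif2ak2, the kinase PKR (-0.33, adjusted p = 0.0043), and Ube2l6, the conjugating enzyme of ISG15 (-0.33, adjusted p = 0.031). After IFNG, 18 of the 31 were lower in WT1, against 27.4% of all genes, and 12 were lower untreated, against 25.2%. The median interaction was 0.035. Ifit1, an RNA-binding antiviral protein, was at 9.21 to 10.98 CPM after IFNG in WT1 against 12.2 to 22.4 in WT2 and WT3, with an interaction of -0.25 (adjusted p = 0.79). For Rsad2, the antiviral enzyme viperin, it was 0.60 (adjusted p = 0.16), and it passed without WT1 IFNG replicate 2 (0.72), without WT3 UT replicate 1 (0.72) and against WT2 alone (0.92). Parp9 and Parp10 were the 2 calls among 7 PARP genes (-0.37 and -0.32), and Tlr3 and Tmem173, which sense double-stranded RNA and cyclic dinucleotides, were the 2 negative calls among 12 nucleic acid sensors (-0.40 and -0.50). The other 2 calls of that list, Tlr13 and Tlr8, were positive, as repressed genes that fell less. The calls of Ube2l6, Parp10 and Tlr3 were each lost on leaving out any 1 of at least 10 libraries, and that of Parp9 without WT1 UT replicate 2 (-0.35). Among 5 Fc gamma receptors Fcgr4 was the single call (-0.43, adjusted p = 0.0017).

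Other programmes had few calls by number or 0. Here too a single call lifts a list above the 2.72% of all genes, so a share above it carries no weight. Slfn9 was the 1 call among 8 Schlafen genes, a family that restrains growth and viral translation (-0.28, adjusted p = 0.037), and it was lost on leaving out any 1 of 13 libraries. The chemoattractant receptor list held Cxcr4 and Ccrl2, a receptor that presents chemerin, as its 2 calls among 9 genes, and the Ccrl2 interaction was -0.76 (adjusted p = 0.00059). By edgeR and by DESeq2 there were 0 calls among 9 CC chemokines, 13 TRIM proteins, 7 genes of the phagocyte NADPH oxidase and 3 CXCR3 ligands. At an unadjusted p under 0.05 these lists held 1, 2, 0 and 0 genes.

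**Figure D3:**
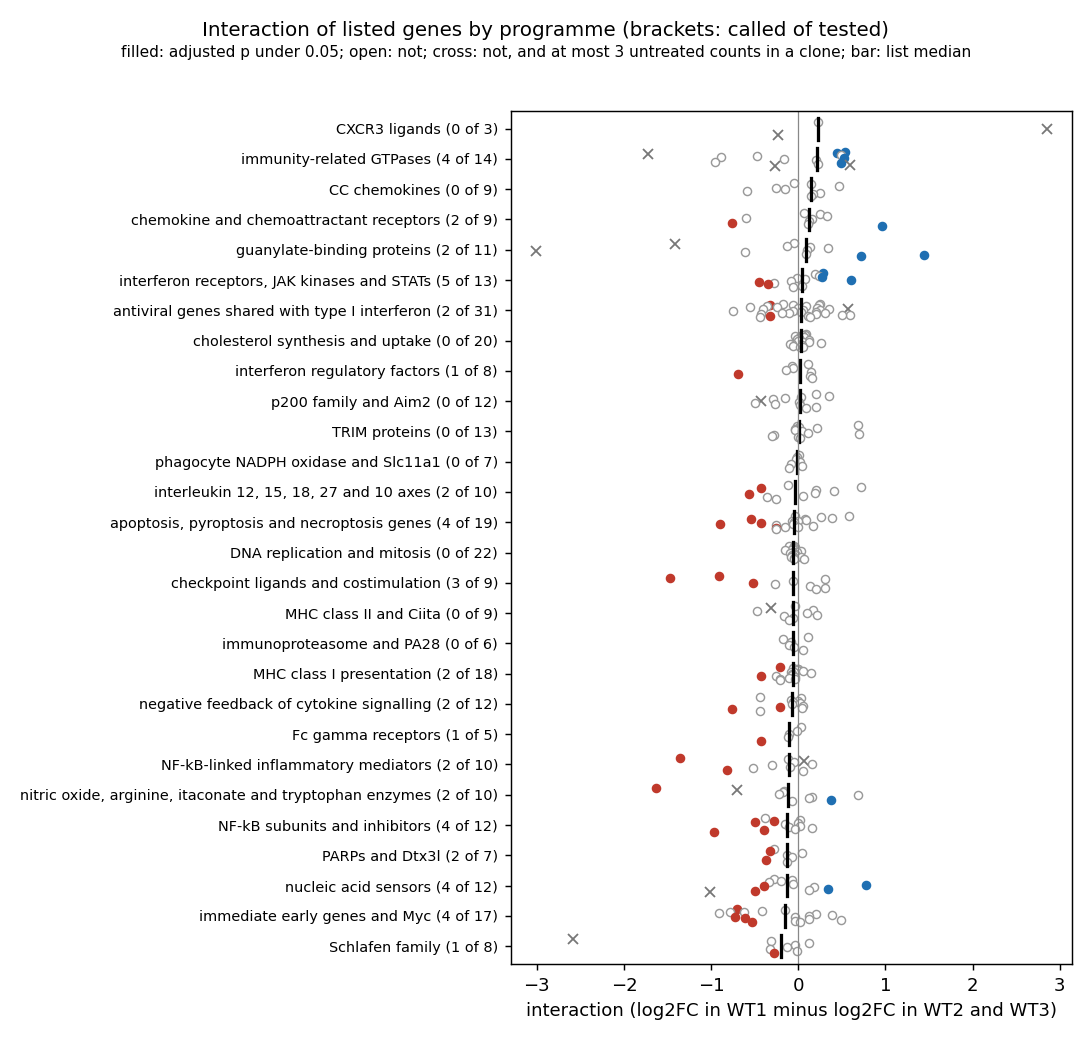
Interaction (log2FC in WT1 minus log2FC in WT2 and WT3) of each tested member of 28 gene lists, with filled points for adjusted p under 0.05, open points for the rest, crosses for uncalled genes with at most 3 untreated counts in a clone and a bar for the list median. Filled points lie to the right of 0 for the guanylate-binding proteins and immunity-related GTPases, and to the left for the NF-kB, immediate early, death and checkpoint lists.

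The chemokine receptor Cxcr4 (chr1:128588199-128592293, mm10, minus strand) had the strongest repression among the weaker repressed genes. It was at 61.1, 56.5 and 63.6 CPM in untreated WT1, 57.7, 51.9 and 61.6 in WT2 and 79.9, 70.3 and 76.2 in WT3, so WT1 and WT2 overlapped. After IFNG it was at 12.1, 10.9 and 19.2 CPM in WT1, 7.85, 6.82 and 7.78 in WT2 and 8.75, 8.05 and 8.95 in WT3. All 3 treated WT1 libraries were above the other 6, replicate 3 by the most. The log2FC was -2.09 in WT1, -2.93 in WT2 and -3.13 in WT3, an interaction of 0.96 (SE 0.16, adjusted p = 0.00040) that passed the threshold without any single library.

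S1pr1, the sphingosine-1-phosphate receptor that guides cell egress, had the smallest adjusted p among these genes. It was at 152, 157 and 154 CPM in untreated WT1, 161, 161 and 157 in WT2 and 177, 167 and 166 in WT3, and at 51.0, 47.6 and 59.6 CPM after IFNG against 27.8 to 31.2 in WT2 and 30.2 to 31.6 in WT3. The clones were close before treatment and separate after it (interaction 0.90, SE 0.072, adjusted p = 8.6e-09). Tlr13, the receptor for bacterial ribosomal RNA (chrX:106143204-106160493, mm10, plus strand), was at 361, 352 and 341 CPM untreated and 208, 230 and 244 CPM after IFNG in WT1, while the other clones went from 267 to 311 CPM to 98.6 to 116 CPM. WT1 thus lay above the rest in both conditions, by more after IFNG (interaction 0.77, SE 0.066, adjusted p = 2.2e-08). Tlr8, another endosomal RNA sensor, had an interaction of 0.34 (adjusted p = 0.013), and of 0.27 with no call without WT1 IFNG replicate 2.

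Further repressed genes that fell less in WT1 were the transcription factor Bhlhe41 (interaction 0.94, adjusted p = 5.7e-05), the myeloid receptor Cd300lb (0.99, adjusted p = 0.0021), the CDC42 exchange factor Fgd3 (0.88, adjusted p = 0.0029) and the adaptor Sla (0.87, adjusted p = 4.8e-05). Chac1, which degrades glutathione, and Rubcnl, an autophagy regulator, had log2FCs of 0.046 and -0.078 in WT1 that did not pass the threshold, against -1.25 and -1.36 in the mean of WT2 and WT3 (interactions 1.30 and 1.27). For Chac1, Rubcnl, Cd300lb, Fgd3 and Bhlhe41, as for Cxcr4, WT1 IFNG replicate 3 was the highest of the 3 treated WT1 libraries, yet the interaction of each of these 6 genes still passed without it. The growth factor Pdgfa rose by 1.04 in WT1, against 0.16 in the mean of WT2 and WT3 that did not pass the threshold (interaction 0.89, adjusted p = 0.0037). Mreg, a regulator of organelle transport, was induced more in WT1 (0.88, adjusted p = 0.0076).

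The level of WT1 against the mean of WT2 and WT3 was tested in each condition to place these differences. WT1 differed in 54.6% of all genes tested when untreated and in 55.7% after IFNG, so a level difference alone is common. By direction, WT1 was higher in 29.3% and lower in 25.2% untreated, and higher in 28.3% and lower in 27.4% after IFNG. Of the 191 induced genes weaker in WT1, 128 were higher and 38 lower in untreated WT1, and 71 were higher and 84 lower after IFNG. Their median level difference went from 0.38 log2 units untreated to -0.061 after IFNG. In 36 of the 191 WT1 was higher untreated with no called difference after IFNG, as for Csf1, Maff, Cd274, Stat3 and Icam1. The same held for 891 of all 14328 genes tested. It also held for 265 of the 2119 induced genes with a smaller log2FC in WT1, with or without an interaction. The 27 genes with a stronger induction had the opposite course, with 17 lower and 3 higher untreated and 16 higher and 6 lower after IFNG (medians -0.39 and 0.25). The 96 weaker repressed genes were divided when untreated, 33 higher and 41 lower, and mostly higher after IFNG, 66 against 10 (medians -0.088 and 0.39). Since the interaction is the difference of these 2 level differences, their combination restates it and is no separate test.

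**Figure D4:**
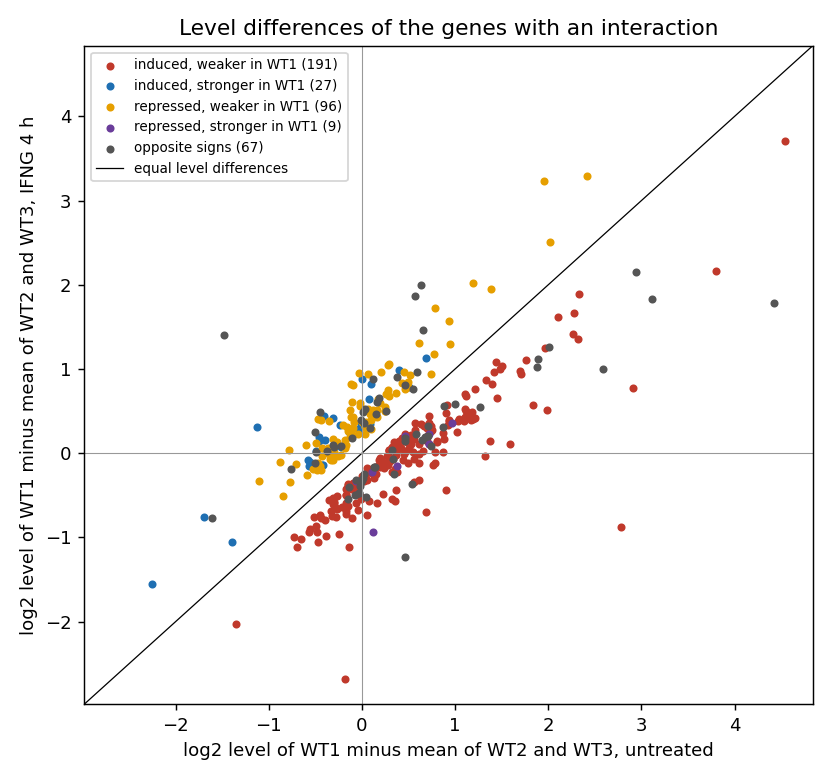
Each point is 1 of the 390 genes with an interaction, with the log2 level of WT1 minus the mean of WT2 and WT3 in untreated cells on the horizontal axis and after IFNG on the vertical axis, and the line marks equal level differences. Most of the 191 weaker induced genes (red) lie right of 0 with smaller values after IFNG, and the weaker repressed genes (orange) lie mostly above 0 after IFNG.

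The KO clones, which the interaction does not use, were set beside the wild type clones as a description. The genes were chosen for a gap between WT1 and the pair of WT2 and WT3, so the order of these 3 clones was largely fixed by the choice. That choice also makes it likely that a further clone lies between WT1 and the pair. The rank of WT1 among 5 clones and a KO value in between are therefore partly fixed as well. Values in the KO clones were available for 388 of the 390 genes. Of the 190 weaker induced genes among them, WT1 had the lowest log2FC of the 5 clones in 155, and the mean of the KO clones lay nearer to WT1 in 102 and nearer to WT2 and WT3 in 88. The medians were 0.66 in WT1, 1.13 in WT2 and WT3, and 0.90 in both KO1 and KO2. Of the 96 weaker repressed genes WT1 had the highest log2FC in 57, and the KO mean lay nearer to WT1 in 84 and nearer to WT2 and WT3 in 12. Here the medians were -0.62 in WT1, -1.09 in WT2 and WT3, -0.73 in KO1 and -0.70 in KO2. Among 13661 genes with no interaction the KO mean was nearer to WT1 in 6761 and nearer to WT2 and WT3 in 6900. The KO medians lay between those of WT1 and of WT2 and WT3 in both classes, closer to WT1 in the weaker repressed genes.

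By gene, the KO values divided the named examples. Tlr13 had a log2FC of -0.60 in KO1 and -0.66 in KO2, close to the -0.63 of WT1 and short of the -1.40 of WT2 and WT3. Cxcr4 had log2FCs of -2.91 and -2.95, close to the -2.93 of WT2 and the -3.13 of WT3. Cd40 rose by 3.32 and 2.85 in the KO clones, between WT1 at 2.1 and the mean of WT2 and WT3 at 3.57. Csf1 rose by 4.53 and 4.42, above the 4.27 of WT2 and WT3 and the 2.91 of WT1. Irgm1 rose by 5.60 and 5.46 beside 5.50 in WT1. These are values side by side with no test between wild type and KO clones.

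**Figure D5:**
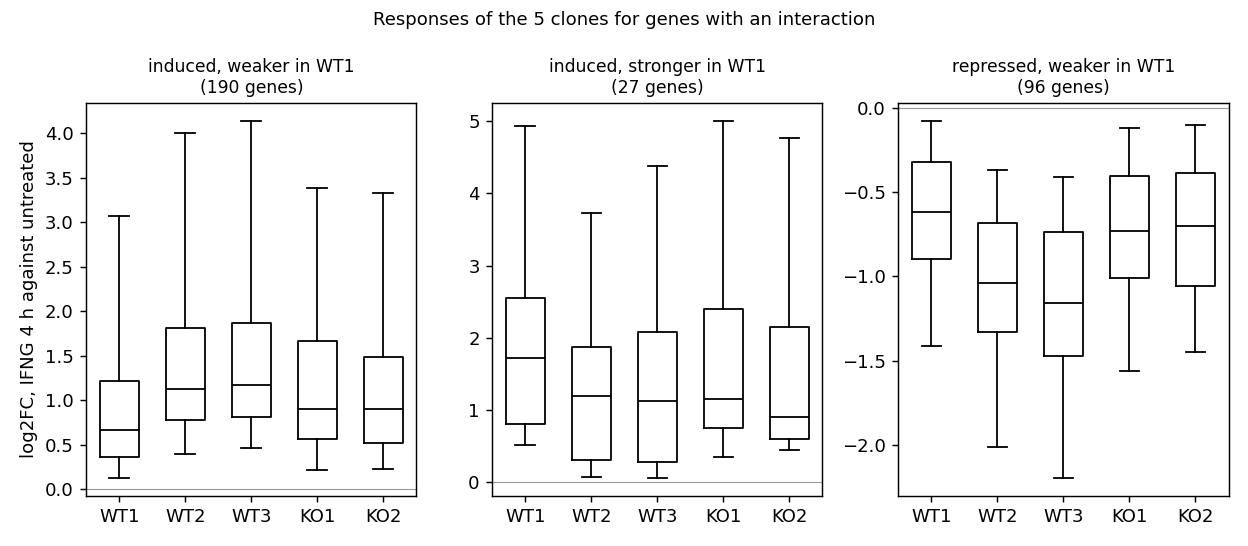
Log2FC with IFNG in each of the 5 clones for the weaker induced, stronger induced and weaker repressed genes, with boxes for the middle 50% of genes, a line for the median and whiskers from the 5th to the 95th percentile. The WT1 median is the lowest of the 5 among the 190 weaker induced genes and the nearest to 0 among the 96 weaker repressed genes. The genes were chosen for the gap between WT1 and the pair of WT2 and WT3, so this order is partly fixed by the choice.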

How the data were processed

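Raw counts per gene were deposited: the authors aligned poly(A) RNA-seq reads to mm10 with HISAT2 2.1.0 and SAMtools 1.10 and counted fragments by strand with featureCounts 1.6.2. The table header names GENCODE annotation and shows that fragments over overlapping genes were counted for each. WT1 columns are headed wt1, whereas those of WT2 and WT3 are headed wtc1 and wtc3 and were assigned through the authors' single-clone tables, so the naming differs between the groups compared. Columns carry no replicate number, so numbers only name columns in table order. Further count tables that hold subsets or the union of the same libraries were not used.

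The test was the quasi-likelihood test of edgeR 4.0.16 in R 4.3.3 (filterByExpr, TMM scaling, Benjamini-Hochberg adjustment over all genes tested, threshold 0.05), with clone as block and an interaction of treatment with clone group. Responses, pairwise differences and levels came from a fit with 1 coefficient for each of the 6 groups. CPM values use TMM library sizes. DESeq2 1.42.0 and other settings were alternatives. The script was tested on simulated data. Named genes were the 12 largest positive and 12 largest negative interactions among called genes with at least 1 CPM in every clone and a called response with an absolute log2FC of at least 1, up to 4 called members of each of 28 lists, and a fixed set of IFNG genes; Irgm2, Gbp4 and genes given only as list members were named after their values were seen. Members, lists and rules were chosen with earlier results of these data known. Promoters come from RefSeq (GRCm38.p6). Counting error and the spread between libraries limit precision, and Ciita, H2-Aa and Ido1, with 30, 1 and 61 counts over all 18 libraries, were not tested. Values of some genes are not reported here.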

Additional observations from a re-analysis of the deposited data

Results flagged for a closer look

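The response to IFNG differed between WT1 and the pair of WT2 and WT3 in 390 genes by the interaction test. Taken by pairs, it differed between WT1 and WT2 in 201 genes, between WT1 and WT3 in 385 genes and between WT2 and WT3 in 11 genes. Groups of 3 libraries were too small for a test of outlying libraries.

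Of the 11 genes with a different response in WT2 and WT3, 10 had a smaller response in WT2. They include interferon-inducible GTPases: Gbp3 (log2FC in WT2 minus WT3 -0.63, adjusted p = 0.0048), Ifi47 (-0.48, adjusted p = 0.040) and Igtp (-0.44, adjusted p = 0.040). Ifi44 and Ifi203, an antiviral protein and a member of the p200 family, differed by -0.81 (adjusted p = 0.00039) and -0.47 (adjusted p = 0.030). Rp2, Enc1, Bmp2k, Fchsd2 and Gm8995 differed by -0.55, -0.57, -0.34, -0.53 and -0.38. The kinase Tbk1 was the 1 gene with a larger response in WT2, by 0.34 (adjusted p = 0.049). For Gbp3 the WT1 response of 5.11 was near the 5.08 of WT3, and for Ifi44 the WT1 response of 2.85 was near the 2.82 of WT2. Fchsd2 was also among the 390. The count of 11 rests on single libraries, and leaving out 1 library at a time gave 3 to 22 genes.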

How the results depend on the processing

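No paired analysis was possible because the columns carry no replicate numbers, so the planned fits with a replicate block were not run. The settings that moved a count by over 1.5 times were these. Without clone as a block the interaction was called in 221 genes (83 positive, 138 negative), all 221 among the 390. Against WT3 alone (without clone WT2) 263 genes were called, 148 of them negative, with an IRG median of 0.42, and against WT2 alone (without clone WT3) 162 genes were called (85 positive, 77 negative), with an ISG median of -0.085. Positive calls numbered 247 with no filter beyond 1 count and 239 with counts summed per clone and treatment. The IRG median was 0.53 for genes with a log2FC below -2 in the KO clones, and the ISG median was -0.25 with sets defined in WT2 and WT3. Genes that differed between WT2 and WT3 numbered 22 with DESeq2 and 2 with libraries thinned to the smallest total. The cause of these moves was not tested beyond what each setting changes. DESeq2, RLE size factors, a filter requiring 10 or more counts throughout, a response for each clone, thinning and a robust prior (chosen after seeing the data) gave 338 to 468 genes.

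Leaving out 1 library at a time gave 289 to 454 genes with an interaction (115 to 204 positive, 174 to 314 negative), an ISG median of -0.20 to -0.15 and an IRG median of 0.20 to 0.37. For the other results, where this was chosen after seeing the data, it gave 132 to 296 genes for WT1 against WT2, 245 to 453 for WT1 against WT3 and 3 to 22 for WT2 against WT3. Responses were called in 3437 to 4115 genes in WT1, 3346 to 4221 in WT2, 3878 to 4985 in WT3 and 5245 to 5988 in their mean, and level differences in 7041 to 8163 untreated and 7076 to 8208 after IFNG. Of 68 named genes with an interaction, 30 kept it under every alternative run, 52 kept it on leaving out any 1 library, and 0 changed sign. Without clone WT2 the call was lost in 21 named genes, and without clone WT3 in 28. Gbp8, Gbp9, Nlrc5, Fcgr4 and Stat5b each lost the call in 1 alternative other than leaving out a single library. Of 23 named genes without one, 2 gained a call, Rsad2 in 3 settings (0.72 to 0.92) and Igtp against WT2 alone (0.46). Calls lost on leaving out any 1 of at least 9 libraries were those of Epha4, Ptpn6, Ptgs2, B2m, Ube2l6, Tlr3, Parp10, Slfn9 and Nfkb2, and Nod1 lost its call without WT1 UT replicate 3 (-0.87).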

Other observations

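Some programmes differed in level between WT1 and the pair of WT2 and WT3 with 0 called differences in response by edgeR. At an unadjusted p under 0.05 the interaction passed in 2 of 20 cholesterol genes, 3 of 12 genes of the p200 family and 0 of 9 of MHC class II. DESeq2 called 0, 2 and 0 of them. Genes of cholesterol synthesis and uptake were lower in WT1, 15 of 20 untreated and 15 after IFNG, against 25.2% and 27.4% of all genes, with a median interaction of 0.032. The p200 family of DNA sensors had 6 of 12 genes lower in both conditions and 0 higher, and Ifi203 was lower by 0.72 and 0.69 log2 units. Of 9 genes of MHC class II tested, 7 were higher in WT1 in both conditions, against 29.3% of all genes untreated and 28.3% after IFNG. The invariant chain Cd74 was at 379 to 424 CPM in untreated WT1 against 118 to 142 CPM in WT2 and WT3, and at 358 to 509 CPM after IFNG against 116 to 164 CPM, while its response was not called in any clone. Ciita and H2-Aa were not tested for want of counts.

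The antiviral GTPase Mx1 was at 3.77 to 4.16 CPM after IFNG in WT1 and at 0.336 to 1.19 CPM in WT2 and WT3, with an interaction of 0.25 (adjusted p = 0.93). Untreated, it was already higher in WT1, at 0.544 to 0.764 CPM against 0.0557 to 0.315 CPM. The untreated WT2 and WT3 libraries held only 1 to 6 counts each, so the size of the Mx1 interaction cannot be read. Of the chemokines that bind CXCR3, Cxcl10 reached 665 to 738 CPM in WT1 against 754 to 996 CPM, with an interaction of 0.22 (adjusted p = 0.88), and Cxcl9 was at 0 in all 9 untreated libraries and at 33.3 to 49.9 CPM in all treated ones. Of 22 genes of DNA replication and mitosis, 9 were lower in WT1 untreated and 14 after IFNG, against 25.2% and 27.4% of all genes. Among these 22 genes 0 interactions were called by edgeR or DESeq2 and 0 passed at an unadjusted p under 0.05, with a median interaction of -0.056.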
